A study of Mus musculus with 6 samples.

Results

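The 33 genes described here are those of white fat cells and of fat synthesis: secreted proteins, lipid droplet and fatty acid binding proteins, adipocyte transcription factors, transporters, lipolytic enzymes, enzymes of triglyceride assembly and the pathway of de novo lipogenesis. They were taken by symbol from the 27815 gene identifiers of 6 aorta libraries, and 33 of 33 were found. All 33 reached at least 1 FPKM in at least 2 libraries, the filter that left 14074 genes for testing, and 30 of them did so in all 6 libraries. FPKM divides the reads of a gene by its exon length in kilobases and by the library's depth, so that levels of different genes can be set side by side.

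Polyadenylated RNA of mouse aorta was sequenced in 3 groups with 2 libraries each, all on the C57BL/6 strain. The Ctrl group was wild type and is labelled as 2 months old. The ApoE group carried the ApoE-/- genotype, was kept on chow for 16 months and had atherosclerotic calcification. In the CKD group the poles of the left kidney were cut away at 8 weeks of age and the right kidney was taken out after 1 week; a diet with 2% phosphate and drinking water with 0.45% NaCl for 4 weeks then gave medial calcification. The CKD libraries carry an age label of 16 months, which conflicts with that schedule, so their age is unresolved. Age and genotype change together between ApoE and Ctrl and cannot be told apart. The same holds for kidney surgery, diet, drinking water and age between CKD and Ctrl. By the label or by the schedule, the CKD mice were older than the 2 months given for Ctrl. ApoE and CKD differ in genotype, surgery, diet and water at once, and possibly in age. The labels name neither separate animals nor pools for these libraries, apart from pools of 4 samples made for miRNA sequencing, and they give no account of how the fat around the vessel was handled. The SEs and p-values below therefore rest on differences among these libraries, which could be technical.

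Mature white adipocytes store triglyceride in a droplet coated by perilipin 1, under the control of the transcription factors PPARγ and C/EBPα. Adipose triglyceride lipase and hormone-sensitive lipase release the stored fatty acids. De novo lipogenesis makes new fatty acids from citrate: ATP citrate lyase and acetyl-CoA carboxylase supply the building blocks, fatty acid synthase joins them, and Elovl6 and Scd1 lengthen and desaturate the product. Insulin and carbohydrate raise these enzymes through SREBP-1c and ChREBP, the product of Mlxipl. The mouse aorta is wrapped in perivascular fat, which is brown-like in the chest and closer to white fat in the abdomen.

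Promoter windows of 250 bases before the transcription start were read from RefSeq on GRCm38.p6, and 27 of the 33 genes had at least 1 window, 37 windows in all. Adipoq and Fasn are shown because the ratios given further on set one against the other: Adipoq marks the adipocyte, and Fasn is the central enzyme of lipogenesis. Neither window overlaps an annotated exon. Both run 5′ to 3′ on the strand of the gene, and capitals mark CCAAT boxes, the letters CCAAT on either strand. The Adipoq window is chr16:23146286-23146535 on the + strand and the Fasn window is chr11:120824548-120824797 on the - strand.
Adipoq: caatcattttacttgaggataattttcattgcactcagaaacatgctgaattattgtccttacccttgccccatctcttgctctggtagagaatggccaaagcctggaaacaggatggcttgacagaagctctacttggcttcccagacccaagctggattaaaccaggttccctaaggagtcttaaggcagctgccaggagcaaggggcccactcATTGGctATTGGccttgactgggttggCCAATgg
Fasn: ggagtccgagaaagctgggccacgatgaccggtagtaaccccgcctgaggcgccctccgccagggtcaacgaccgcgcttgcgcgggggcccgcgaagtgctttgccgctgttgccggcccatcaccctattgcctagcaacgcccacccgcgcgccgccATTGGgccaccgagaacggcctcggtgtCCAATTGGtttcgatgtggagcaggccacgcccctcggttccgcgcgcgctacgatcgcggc
In each window the CCAAT letters occur 3 times, and in Fasn 2 of the matches overlap. Over all windows of the 33 genes CCAAT was found in 13 of 37 (35.1%), beside 33.8% of the 32851 windows of all genes. The core letters of a C/EBP site, TTGCNNAA, stood in 5 windows (13.5%, beside 9.6% of all windows), and the core of a sterol response element, TCACNCCAC, in 2 (5.4%, beside 1.1%), those of Acsl1 and Mlxipl. The E-box CACGTG was in 2 windows (5.4%, beside 6.0%) and the PPAR direct repeat, 2 copies of AGGNCA with 1 base between them, in 0 (beside 0.3%). All motifs were searched on both strands, and a match describes letters only.

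The libraries held 14.44 to 16.64 M reads by the scale recovered from the values, and the precision of low genes was set by that depth: Lep rested on 11 and 28 reads in the Ctrl libraries. Apoe, the targeted gene, stood at 11.4 to 13.2 FPKM in the ApoE libraries and at 627 to 1447 in the other libraries. The mitochondrial share of reads was 3.36% and 4.49% in the Ctrl, 10.4% and 11.82% in the ApoE, and 10.7% and 6.12% in the CKD libraries. The library kit did not mark strand, and 11 of the 33 genes (Nrg4, Plin4, Cebpa, Lipe, Pnpla3, Gpd1, Agpat2, Acsl1, Elovl6, Me1 and Mlxipl) share exon sequence with another annotated gene, so that their reads cannot be fully separated from those of the neighbour.

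Adipocyte transcripts were present in each of the 6 libraries and differed widely within 2 of the groups. Adipoq (adiponectin, an adipocyte-specific hormone; ENSMUSG00000022878, GRCm38 chromosome 16, 23146536 to 23158028) stood at 25.3 and 70.1 FPKM in Ctrl 1 and Ctrl 2, at 256 and 248 in ApoE 1 and ApoE 2, and at 681 and 200 in CKD 1 and CKD 2. The ApoE pair was close, while the CKD pair spanned it. Cfd (adipsin, a complement protease secreted by fat cells) had the highest level of the set, at 247 and 589, 1841 and 1960, and 4660 and 1607 FPKM in the same order. Plin1, the droplet coat protein, stood at 8.23 and 17.4, 61.0 and 67.8, and 135 and 53.0 FPKM. For all 3 genes CKD 1 was the highest library and Ctrl 1 the lowest. The brown fat gene Ucp1, given further on, was present as well, from 26.3 FPKM in Ctrl 1 to 539 in CKD 1. The levels of these genes were thus not shown to be those of white fat alone.

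Ctrl 2 exceeded Ctrl 1 in 33 of 33 genes and CKD 1 exceeded CKD 2 in 32 of 33, the exception being Rbp4. ApoE 1 exceeded ApoE 2 in 20 of 33. Over all genes tested the median ratio of the same libraries was 1.00, 0.977 and 1.07. The ratio of Ctrl 2 to Ctrl 1 was 2.77 for Adipoq, 2.39 for Cfd and 2.62 for Fabp4, and that of CKD 1 to CKD 2 was 3.41, 2.90 and 3.15. A common direction was thus seen within Ctrl and within CKD, and not within ApoE. In tissue RNA, a difference in the number of fat cells and a difference in RNA per fat cell cannot be told apart.

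**Figure D1:**
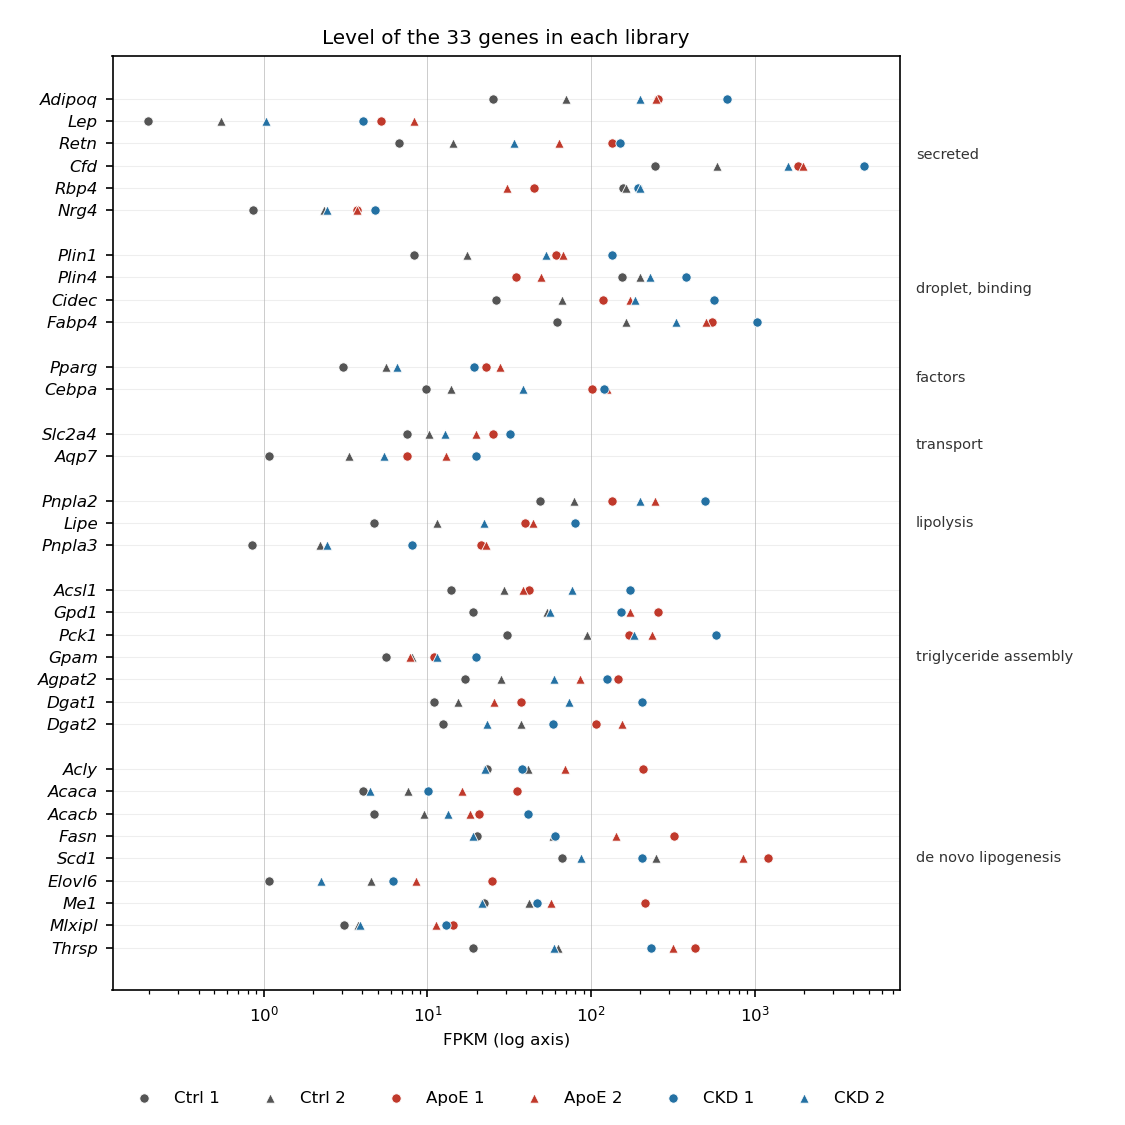
FPKM of the 33 genes on a log axis, 1 point per library, with genes grouped by role; grey, red and blue stand for Ctrl, ApoE and CKD, circles for replicate 1 and triangles for replicate 2. In most rows the Ctrl points lie to the left and CKD 1 to the right, Rbp4 and Plin4 have the ApoE points farthest left, and most lipogenic genes have both ApoE points farthest right.

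Relative to Adipoq of the same library, the other 32 genes differed in how far their ratio ranged over the 6 libraries. The highest ratio was 1.42 times the lowest for Cfd, 1.62 for Fabp4, 1.64 for Plin1 and 1.68 for Lipe, which had the narrowest ranges, and the median over the 32 genes was 4.65. It was 3.08 for Retn, 3.65 for Pnpla2, 4.29 for Pparg, 6.35 for Slc2a4 and 6.46 for Lep, 10.8 to 16.4 for Elovl6, Acaca, Me1, Fasn, Scd1 and Acly, and highest for Plin4 and Rbp4, at 45.1 and 50.7. The ratio of Cfd to Adipoq ran from 6.85 to 9.75 over the 6 libraries, that of Plin1 from 0.198 to 0.326, that of Lipe from 0.111 to 0.187 and that of Fabp4 from 1.52 to 2.46. Adipoq itself ran from 25.3 to 681 FPKM over those libraries. Adipoq was chosen as the denominator after the values were seen, and these ratios are given as a description.

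Rbp4 and Plin4 had the widest ranges of ratios. Rbp4 (retinol binding protein, a carrier of vitamin A made by liver and fat; chromosome 19, 38116629 to 38125281) measured 158 and 164 FPKM in Ctrl, 45.0 and 30.5 in ApoE, and 194 and 198 in CKD. Plin4 (a perilipin of small droplets and muscle; chromosome 17, 56100591 to 56109803) stood at 155 and 199 in Ctrl, 34.6 and 49.6 in ApoE, and 377 and 230 in CKD. Both ApoE libraries were below the other 4 for each gene. The ratio of Rbp4 to Adipoq ran from 0.123 in ApoE 2 to 6.24 in Ctrl 1.

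The first comparison set the aorta with calcified plaques against the young wild-type aorta. Of the 33 genes, 20 rose and 2 fell in ApoE, beside 19.8% and 24.3% of all genes tested that rose and fell (44.1% either way), and 11 did not pass. The median log2 difference of the 33 was 2.21, beside -0.07 over all genes tested. Differences are on the scale of log2(FPKM + 1), which understates the change of low genes, and calls are genes with a limma adjusted p below 0.05 over all 14074 genes. The ApoE and Ctrl libraries did not overlap for 32 genes, 30 of them higher in ApoE, where 36.4% of all genes tested were higher and 43.0% lower without overlap.

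Among the 6 secreted proteins, Adipoq, Retn, Cfd and Lep rose and Rbp4 fell. Adipoq rose by 2.55 (SE 0.68, limma adjusted p = 0.0278) and Cfd by 2.31 (SE 0.61, limma adjusted p = 0.0263). Retn, which encodes resistin, went from 6.74 and 14.3 FPKM in Ctrl to 133 and 63.9 in ApoE and rose by 3.10 (SE 0.76, limma adjusted p = 0.021). Lep, the satiety hormone leptin, went from 0.197 and 0.552 FPKM in Ctrl to 5.20 and 8.28 in ApoE, a rise of 2.48 (SE 0.45, limma adjusted p = 0.00787). Leptin was thus low in both Ctrl libraries and higher in both ApoE libraries. Rbp4 fell by 2.09 (SE 0.21, limma adjusted p = 0.00106). Nrg4, a secreted growth factor of brown and white fat, stood at 0.861 and 2.35 in Ctrl and 3.72 and 3.71 in ApoE and did not pass.

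Of the 4 droplet and fatty acid binding proteins, Plin1 and Fabp4 rose and Plin4 fell. Plin1 rose by 2.32 (SE 0.50, limma adjusted p = 0.0141). Fabp4, the fatty acid carrier of adipocytes that macrophages also make, went from 62.3 and 163 to 547 and 503 FPKM, a rise of 2.37 (SE 0.65, limma adjusted p = 0.0301). Plin4 fell by 2.06 (SE 0.31, limma adjusted p = 0.00422). Cidec, which fuses droplets, stood at 26.4 and 66.7 in Ctrl and 119 and 174 in ApoE and did not pass.

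Both transcription factors rose. Pparg went from 3.05 and 5.62 FPKM in Ctrl to 22.8 and 27.9 in ApoE, a rise of 2.34 (SE 0.48, limma adjusted p = 0.0121). Cebpa went from 9.74 and 13.8 to 101 and 126 FPKM, a rise of 3.17 (SE 0.51, limma adjusted p = 0.00534). Of the transporters, Slc2a4 (the insulin-responsive glucose transporter GLUT4) stood at 7.53 and 10.2 in Ctrl and 25.0 and 19.8 in ApoE, and Aqp7 (the glycerol channel) at 1.08 and 3.32 and at 7.52 and 13.0. Neither passed, and in neither did the groups overlap.

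Pnpla3 had the largest rise among the lipases and their relatives. This droplet-bound relative of adipose triglyceride lipase went from 0.842 and 2.19 FPKM in Ctrl to 21.4 and 22.8 in ApoE, a rise of 3.25 (SE 0.48, limma adjusted p = 0.004). Lipe, hormone-sensitive lipase, went from 4.73 and 11.5 to 39.3 and 44.0 FPKM and rose by 2.33 (SE 0.63, limma adjusted p = 0.0288). Pnpla2, adipose triglyceride lipase itself, stood at 48.5 and 78.4 in Ctrl and 134 and 245 in ApoE and did not pass.

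Of the 7 genes of triglyceride assembly, 3 rose. Gpd1, which makes glycerol 3-phosphate, went from 19.0 and 54.0 FPKM to 258 and 172 and rose by 2.67 (SE 0.63, limma adjusted p = 0.0192). Agpat2, an acyltransferase whose loss causes lipodystrophy, went from 17.0 and 28.2 to 147 and 85.6 and rose by 2.30 (SE 0.45, limma adjusted p = 0.0104). Dgat2, which completes triglyceride from newly made fatty acids, went from 12.4 and 37.1 to 107 and 155 and rose by 2.52 (SE 0.61, limma adjusted p = 0.0207). Acsl1, Pck1, Gpam and Dgat1 did not pass. Gpam, the first acyltransferase of the pathway, overlapped between the groups, at 5.60 and 8.07 in Ctrl and 10.9 and 7.79 in ApoE.

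De novo lipogenesis had 7 of 9 genes higher in ApoE, with a median log2 difference of 1.93. Scd1, the stearoyl-CoA desaturase, went from 66.5 and 250 FPKM in Ctrl to 1196 and 851 in ApoE, a rise of 2.96 (SE 0.69, limma adjusted p = 0.018). Fasn (chromosome 11) went from 20.2 and 58.3 to 321 and 142 FPKM and rose by 2.60 (SE 0.74, limma adjusted p = 0.0338). Thrsp, a small protein that activates lipogenesis, went from 19.0 and 63.0 to 433 and 315 and rose by 3.37 (SE 0.78, limma adjusted p = 0.0172). Acaca, Acly, Elovl6 and Mlxipl rose by 1.93, 1.93, 2.21 and 1.63, with limma adjusted p from 0.0249 for Acaca to 0.0436 for Elovl6. Acacb, the carboxylase that restrains fatty acid oxidation, and Me1, the malic enzyme that supplies NADPH, did not pass, although both ApoE libraries were above both Ctrl libraries.

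How many genes were called in ApoE depended on single libraries. The count of 20 higher was 3 without Ctrl 1, 3 without ApoE 1 and 6 without ApoE 2, and 27 without CKD 1 or without CKD 2; Cebpa, Pnpla3, Rbp4 and Plin4 were the 4 genes called whichever of the 6 libraries was left out. With adipocyte level as a covariate, described further on, 1 rose (Pnpla3) and 2 fell (Rbp4 and Plin4).

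**Figure D2:**
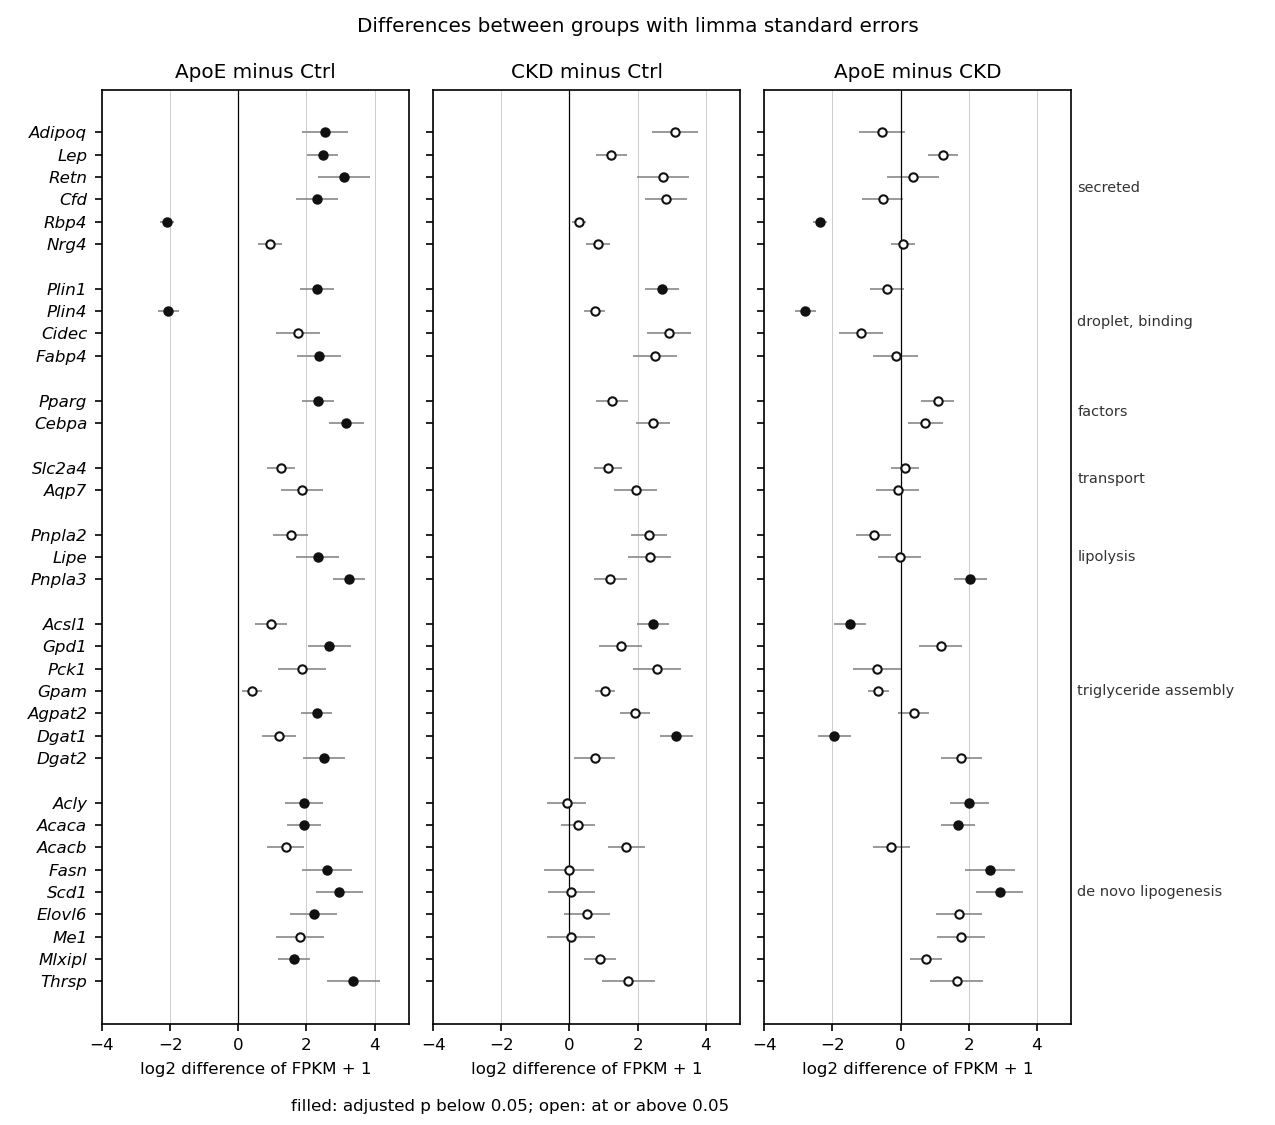
Differences on the log2(FPKM + 1) scale with limma standard errors for the 33 genes, in panels for ApoE minus Ctrl, CKD minus Ctrl and ApoE minus CKD; filled points have an adjusted p below 0.05. The points of de novo lipogenesis lie between 1.39 and 3.37 in the first panel and between -0.08 and 1.73 in the second, and Rbp4 and Plin4 lie to the left of 0 in the first and the third.

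The comparison of CKD with Ctrl asked the same of the medially calcified aorta, against the same Ctrl libraries. Of the 33 genes 3 rose (Dgat1, Plin1 and Acsl1) and 0 fell, beside 2.23% and 3.21% of all genes tested. The median log2 difference was 1.50, beside -0.03 over all genes. By unadjusted p below 0.05, 20 of the 33 were higher in CKD and 0 lower, beside 13.1% and 16.9% of all genes tested. In 25 of 33 both CKD libraries were above both Ctrl libraries, where 29.1% of all genes tested were, and the spread within CKD was wide.

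Dgat1, an enzyme of the last step of triglyceride synthesis that also re-esterifies released fatty acids, went from 11.0 and 15.3 FPKM in Ctrl to 204 and 73.3 in CKD, a rise of 3.14 (SE 0.49, limma adjusted p = 0.0346). Plin1 rose by 2.72 (SE 0.50, limma adjusted p = 0.0434). Acsl1, which activates long-chain fatty acids, went from 13.9 and 29.2 to 173 and 76.6 FPKM and rose by 2.45 (SE 0.47, limma adjusted p = 0.046). These 3 calls were lost without Ctrl 1, Ctrl 2, ApoE 1, ApoE 2 or CKD 1, each leaving 0 of the 33 called, while 21 of them were called without CKD 2; they were also lost with only the 4 libraries compared and with no filter on low values.

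Most other adipocyte genes had larger values in CKD than in Ctrl without passing the test. Cidec stood at 563 and 187 FPKM in CKD, beside 26.4 and 66.7 in Ctrl. Pck1, which supplies glycerol for re-esterification, stood at 579 and 184, beside 30.7 and 94.2. Pnpla2 stood at 499 and 198, beside 48.5 and 78.4, and Retn at 151 and 33.9, beside 6.74 and 14.3. Lep stood at 4.05 and 1.03. In each of these genes the lower CKD library was above the higher Ctrl library.

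Most lipogenic genes overlapped between CKD and Ctrl. Fasn stood at 60.0 and 19.0 FPKM in CKD, beside 20.2 and 58.3 in Ctrl, and Acly (ATP citrate lyase) at 37.9 and 22.4, beside 23.0 and 41.2. Scd1 stood at 204 and 87.2, beside 66.5 and 250, and Me1 at 46.6 and 21.4, beside 22.1 and 41.8. In 7 of the 9 genes the CKD and Ctrl libraries overlapped, the exceptions being Acacb, at 41.2 and 13.4 beside 4.69 and 9.52, and Mlxipl, at 12.9 and 3.86 beside 3.09 and 3.78. Of all genes tested, 29.1% were higher and 35.1% lower in CKD without overlap. Thrsp, at 232 and 59.2 beside 19.0 and 63.0, overlapped with a log2 difference of 1.73. The median log2 difference of the 9 was 0.24 and 0 passed limma's test. At an unadjusted p below 0.05, 1 of them was higher, beside 13.1% of all genes tested. Standard errors were as large as 0.78, for Thrsp, and a p that misses the threshold does not show equal levels.

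The comparison of ApoE with CKD set the 2 calcified aortas against each other. Pnpla3, Scd1, Fasn, Acly and Acaca were higher in ApoE, and Rbp4, Plin4, Dgat1 and Acsl1 were higher in CKD. These 5 and 4 of 33 stand beside 18.5% and 21.2% of all genes tested (39.7% either way), and 24 did not pass. The median log2 difference over the 33 was 0.12, beside -0.04 over all genes tested. In 12 genes both ApoE libraries were above both CKD libraries and in 6 both were below, beside 33% and 38.0% of all genes tested.

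Scd1 stood at 1196 and 851 FPKM in ApoE and 204 and 87.2 in CKD, a log2 difference of 2.91 (SE 0.69, limma adjusted p = 0.021). Fasn stood at 321 and 142 in ApoE and 60.0 and 19.0 in CKD, a difference of 2.62 (SE 0.74, limma adjusted p = 0.0356). Acly, at 207 and 69.6 in ApoE, differed by 2.01 (SE 0.57, limma adjusted p = 0.0368). Acaca, acetyl-CoA carboxylase 1, stood at 35.3 and 16.4 in ApoE and 10.1 and 4.48 in CKD and differed by 1.69 (SE 0.50, limma adjusted p = 0.0408). Pnpla3, at 8.09 and 2.43 in CKD, differed by 2.05 (SE 0.48, limma adjusted p = 0.0208). In each of the 5 genes the lower ApoE library was above the higher CKD library, while Adipoq was higher in CKD 1 than in either ApoE library.

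The genes higher in CKD had other roles. Rbp4 was lower in ApoE by a log2 difference of -2.37 (SE 0.21, limma adjusted p = 0.00115) and Plin4 by -2.80 (SE 0.31, limma adjusted p = 0.00208). Dgat1 stood at 37.3 and 25.5 FPKM in ApoE, with a difference of -1.95 (SE 0.49, limma adjusted p = 0.0246), and Acsl1 at 41.7 and 38.2, with a difference of -1.50 (SE 0.47, limma adjusted p = 0.0484). Dgat2, the other enzyme of the last step of triglyceride synthesis, had the opposite order of values to Dgat1, at 107 and 155 in ApoE and 58.2 and 23.2 in CKD, and did not pass (limma adjusted p = 0.0645). The count of 9 called genes was 2 without ApoE 1 (Rbp4 and Plin4) and 4 without ApoE 2, and 2 with no filter on low values. Rbp4 and Plin4 were called whichever library was left out.

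To compare the groups at a common amount of fat cell RNA, the mean log2(FPKM + 1) of 20 other white adipocyte genes, none of them among the 33, was added to the model as a covariate. Cd36 and Lpl, which are in that list, are also made by macrophages, and their part in the covariate was not tested. The level was 3.61 and 4.28 in Ctrl, 5.34 and 5.31 in ApoE, and 5.93 and 4.83 in CKD. Of the 33 genes, 13 were then higher in ApoE than in CKD and 6 lower, beside 20.3% and 23.0% of all genes tested (43.3% either way). The standard error for Fasn went from 0.74 to 0.40 and that for Thrsp from 0.78 to 0.21, while the differences moved little, to 2.70 and 1.75.

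De novo lipogenesis had 7 of 9 genes higher in ApoE in that fit, with a median log2 difference of 1.78. Scd1 differed by 2.99 (SE 0.36, limma adjusted p = 0.00378), Fasn by 2.70 (limma adjusted p = 0.00693), Thrsp by 1.75 (limma adjusted p = 0.00332) and Acaca by 1.74 (limma adjusted p = 0.016). Acly, Elovl6 and Mlxipl passed as well, at 2.05, 1.78 and 0.79. Me1 differed by 1.82 and did not pass (limma adjusted p = 0.0652). Acacb, the carboxylase of the mitochondrial surface, was at -0.20 (limma adjusted p = 0.205).

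Both transcription factors were higher in ApoE in the same fit, Pparg by 1.15 (SE 0.15, limma adjusted p = 0.00405) and Cebpa by 0.78 (SE 0.21, limma adjusted p = 0.0329). Lep was higher by 1.29, Pnpla3 by 2.11, Dgat2 by 1.85 and Gpd1 by 1.25. Plin4, Rbp4, Dgat1, Acsl1, Cidec and Gpam were lower, with differences from -2.77 for Plin4 to -0.61 for Gpam. Lipe (0.06), Aqp7 (0.00), Fabp4 (-0.07) and Nrg4 (0.12) had differences close to 0 and did not pass, and Adipoq was at -0.46 (limma adjusted p = 0.0632).

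The number of genes called in that fit rested on both CKD libraries. It was 5 of 33 without CKD 1 and 3 without CKD 2, beside 19 with both, and 16 to 21 without any of the other 4 libraries; Pnpla3, Scd1 and Plin4 were called in each of the 6 cases. In ApoE versus Ctrl the fit called Pnpla3 (1.52, limma adjusted p = 0.0145), Plin4 and Rbp4, beside 7.55% of all genes tested called higher and 7.18% called lower (14.7% either way), and 0 of these were called without Ctrl 2, CKD 1 or CKD 2. In CKD versus Ctrl it called 0 of the 33 and 0 of all 14074 genes by limma adjusted p, and 7 and 1420 at an unadjusted p below 0.05. Its median for de novo lipogenesis there was -1.30, with values from -2.45 for Fasn (SE 0.75) to -0.33 for Acacb (SE 0.22). The covariate was lower in both Ctrl libraries (3.61 and 4.28) than in any ApoE or CKD library (4.83 to 5.93). Differences from Ctrl in that fit thus extend the fitted slope over levels that the groups do not share.

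**Figure D3:**
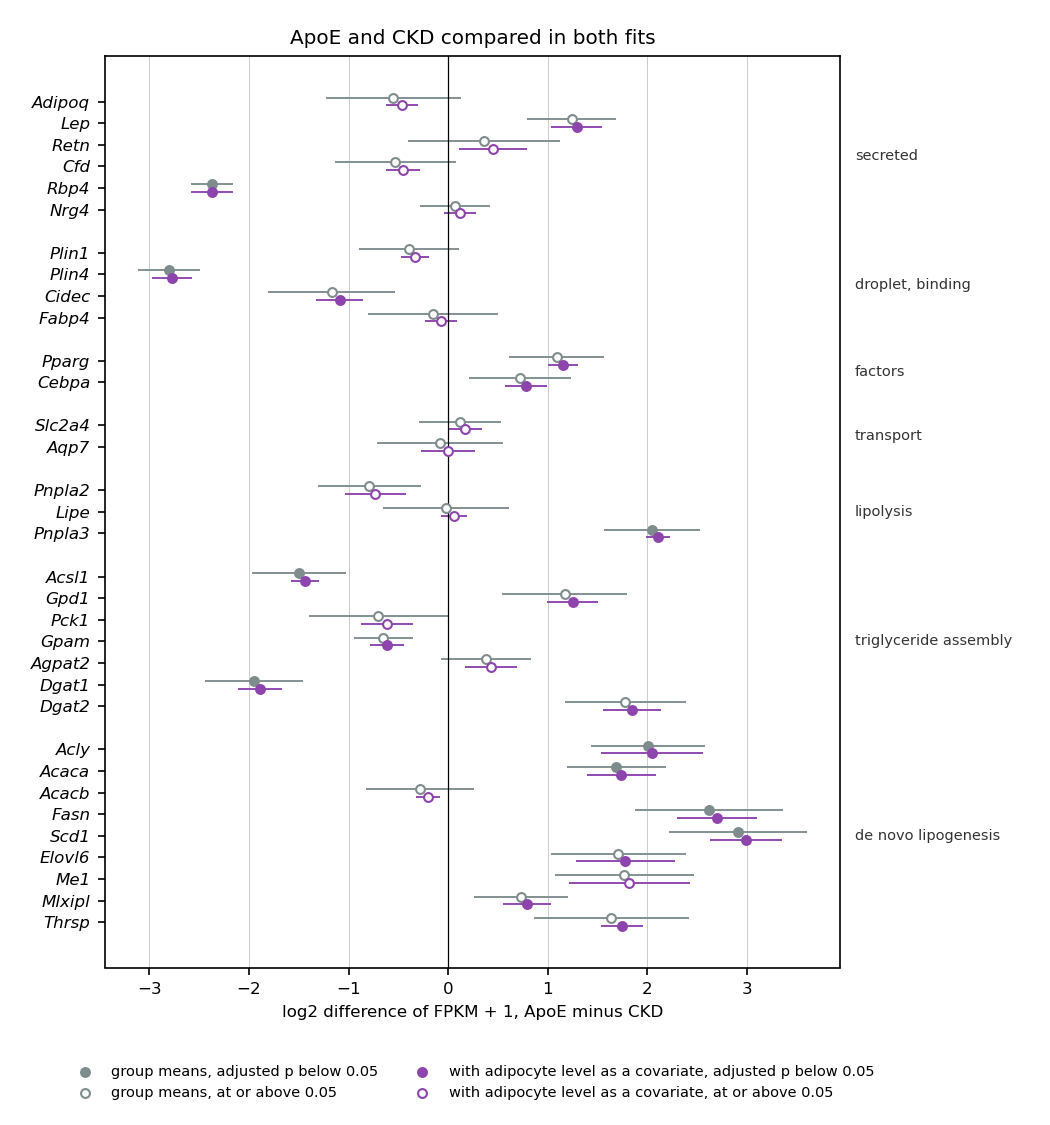
Differences between ApoE and CKD on the log2(FPKM + 1) scale with limma standard errors, from the model of group means (grey) and with adipocyte level as a covariate (purple); filled points have an adjusted p below 0.05. Each pair of points nearly coincides while most purple bars are shorter, and 7 of 9 lipogenic genes are filled in purple against 4 of 9 in grey.

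Ratios to Adipoq within single libraries, from the same data, describe the lipogenic genes without a model and are not a separate test. The ratio of Fasn to Adipoq was 0.799 and 0.832 in Ctrl, 1.26 and 0.572 in ApoE, and 0.0881 and 0.0952 in CKD. That of Scd1 was 2.63 and 3.56, 4.68 and 3.43, and 0.300 and 0.436. That of Acly was 0.910 and 0.587, 0.812 and 0.280, and 0.0557 and 0.112. The ApoE and Ctrl ratios overlapped for each of the 3 genes, and those of both CKD libraries were lower.

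For all 9 lipogenic genes the ratio was above that of both CKD libraries in both ApoE libraries and in both Ctrl libraries. For the other 32 genes together, these 9 included, the ApoE ratio was above CKD in 22 and below in 5, and the Ctrl ratio was above CKD in 29 and below in 0. The median ratio of the 9 genes was 0.753 and 0.587 in Ctrl, 0.812 and 0.229 in ApoE, and 0.0605 and 0.0952 in CKD. For the lipolytic genes it was 0.187 and 0.164, 0.154 and 0.177, and 0.116 and 0.111. A ratio in which Adipoq is the denominator is low wherever Adipoq is high. Adipoq was highest in CKD 1, and it was lower in CKD 2 (200 FPKM) than in the ApoE libraries. Both Ctrl libraries, at 25.3 and 70.1 FPKM, were below both CKD libraries in Adipoq. A gene that rose less than Adipoq from Ctrl to CKD therefore tends to have a higher ratio in Ctrl, whatever its role. The share of all genes tested with such ratios was not computed.

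**Figure D4:**
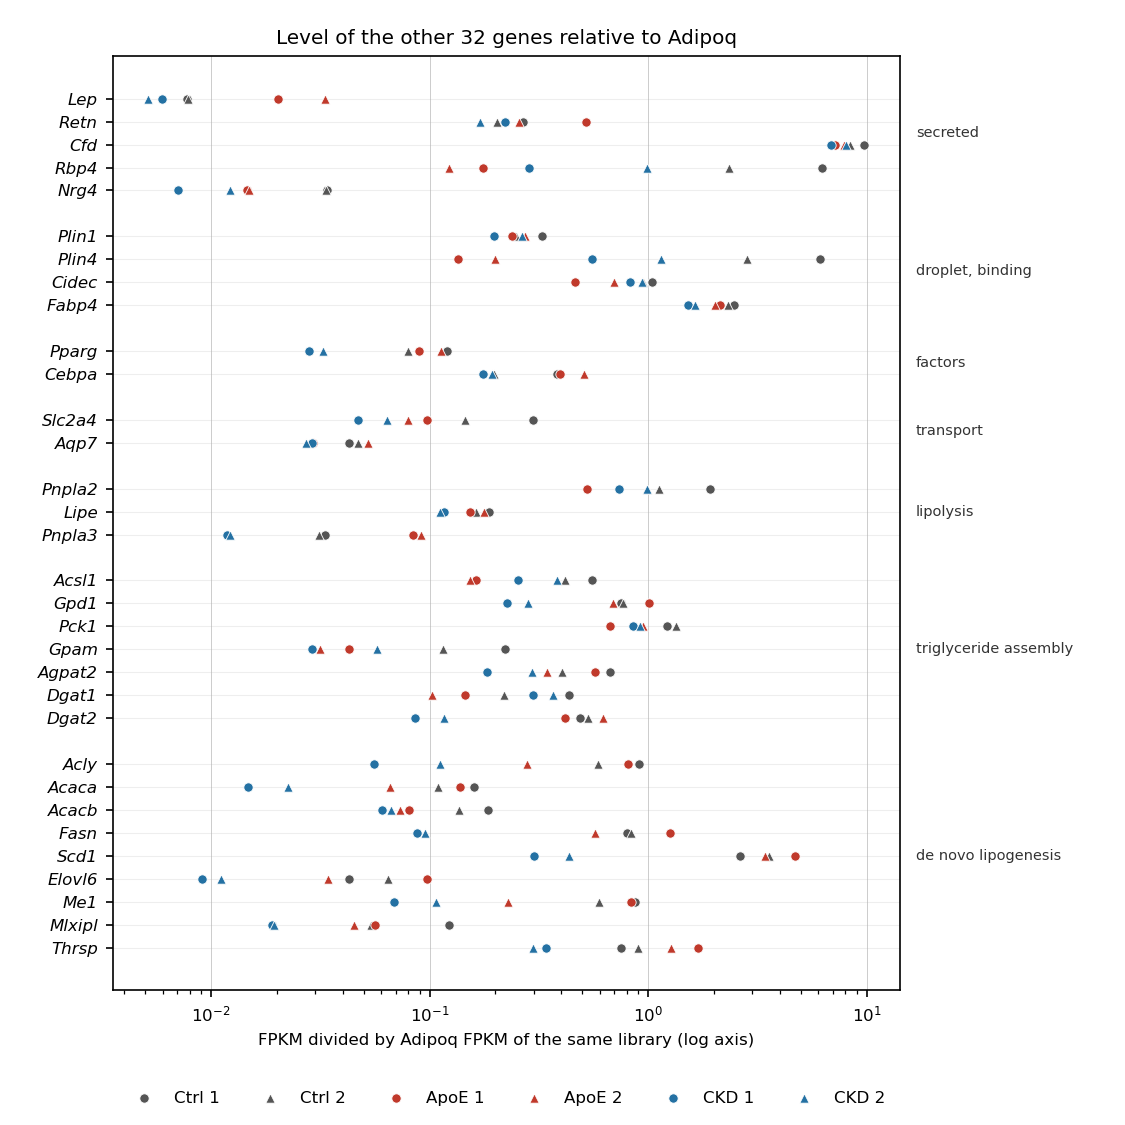
FPKM of the other 32 genes divided by Adipoq FPKM of the same library, on a log axis; grey, red and blue stand for Ctrl, ApoE and CKD, circles for replicate 1 and triangles for replicate 2. In the rows of de novo lipogenesis both CKD points lie to the left of the other 4, as they do in other rows such as Fabp4 and Lipe. In those of Rbp4 and Plin4 both ApoE points lie farthest left.

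Lower ratios in both CKD libraries than in the other 4 were not particular to lipogenesis. Fabp4, Lipe, Slc2a4, Gpd1, Pparg and Pnpla3 were among the other genes that had them. The ratio of Pparg to Adipoq was 0.121 and 0.0801 in Ctrl, 0.0893 and 0.112 in ApoE, and 0.0281 and 0.0326 in CKD. That of Pnpla3 was 0.0333 and 0.0313, 0.0836 and 0.0919, and 0.0119 and 0.0122, with ApoE above Ctrl, while those of Pparg overlapped between ApoE and Ctrl. That of Dgat2 was 0.490 and 0.529, 0.418 and 0.625, and 0.0854 and 0.116. Dgat1 differed from Dgat2, at 0.434 and 0.219, 0.146 and 0.103, and 0.299 and 0.367, with ApoE the lowest.

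Within ApoE several genes, most of the lipogenic ones among them, differed between the libraries while Adipoq did not. The ratio of ApoE 1 to ApoE 2 was 1.03 for Adipoq, 0.939 for Cfd and 0.894 for Lipe. It was 3.76 for Me1, 2.98 for Acly, 2.92 for Elovl6, 2.26 for Fasn and 2.16 for Acaca. Scd1, Thrsp and Mlxipl were closer, at 1.41, 1.38 and 1.28, and the lowest of the 9 was 1.13 for Acacb. Outside lipogenesis the ratio was 2.09 for Retn, 1.71 for Agpat2 and 1.50 for Gpd1. The lipase Pnpla2 went the other way, at 134 FPKM in ApoE 1 and 245 in ApoE 2, a ratio of 0.547. Lep, Aqp7 and Dgat2 were also higher in ApoE 2, with ratios of 0.628, 0.577 and 0.688. The 2 libraries allow no test of this difference.

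Other genes around these pathways were taken from lists, and up to 4 called genes of each are named for a comparison; a few genes, such as Adrb3, stand in more than 1 list. The counts below stand beside 19.8% of all genes tested that rose and 24.3% that fell in ApoE versus Ctrl, 2.23% and 3.21% in CKD versus Ctrl, and 18.5% higher and 21.2% lower in ApoE than in CKD. The calls in CKD versus Ctrl were few under other settings: over all genes they went from 766 to 1 with no filter on low values or with only the 4 libraries compared, and to 0 with the covariate. Of 21 tested lipogenic regulators and further enzymes, 9 rose and 3 fell in ApoE versus Ctrl, 1 rose in CKD versus Ctrl, and 7 were higher and 3 lower in ApoE than in CKD, 10 of 21 beside 39.7% of all genes called either way. Scd2, the broadly expressed desaturase, stood at 19.2 and 16.6 FPKM in Ctrl, 65.2 and 46.9 in ApoE, and 10.1 and 10.9 in CKD (ApoE minus CKD 2.29, SE 0.19, limma adjusted p = 0.00105). Nr1h3, which encodes LXRα, a sterol sensor that raises lipogenic genes, stood at 7.96 and 9.40, 36.0 and 43.6, and 18.2 and 10.6 (ApoE minus CKD 1.44, limma adjusted p = 0.0087). Mid1ip1, a partner of the carboxylase related to Thrsp, and Mogat1, a monoacylglycerol acyltransferase, were higher in ApoE than in CKD by 1.10 and 1.13. Fads2, a desaturase of polyunsaturated fatty acids, fell in ApoE versus Ctrl by 1.07 (limma adjusted p = 0.00778). Gpat3, an acyltransferase, was the gene that rose in CKD versus Ctrl (1.87, limma adjusted p = 0.038).

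Among 17 regulators of lipolysis, 11 rose and 1 fell in ApoE versus Ctrl, 2 rose and 1 fell in CKD versus Ctrl, and 6 were higher and 2 lower in ApoE than in CKD. Adrb3, the β3-adrenergic receptor of fat cells, stood at 1.85 and 2.60 FPKM in Ctrl, 25.1 and 29.6 in ApoE, and 2.52 and 1.03 in CKD (ApoE minus CKD 3.40, SE 0.28, limma adjusted p = 0.00108). Its CKD and Ctrl libraries overlapped, and that difference did not pass (-0.26, SE 0.28, limma adjusted p = 0.565). Plin2, a droplet coat protein of many cells including macrophages, rose in both calcified groups, by 4.06 in ApoE and 1.73 in CKD (limma adjusted p = 0.00026 and 0.0281). Npr1, a natriuretic peptide receptor, fell in both, by 2.1 and 0.7 (limma adjusted p = 0.000283 and 0.0434). Hilpda, an inhibitor of adipose triglyceride lipase, rose in ApoE by 1.50 (limma adjusted p = 0.00448).

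The 20 other white adipocyte genes had 10 higher and 3 lower in ApoE versus Ctrl, and 1 higher in CKD versus Ctrl (Sncg, 1.09). Klf15, a transcription factor also abundant in muscle, stood at 41.5 and 44.3 FPKM in Ctrl, 7.31 and 5.66 in ApoE, and 57.5 and 53.3 in CKD, and fell in ApoE by 2.56 (SE 0.15, limma adjusted p = 0.000264). Adrb3 and Sncg rose by 3.14 and 1.87. Of 10 insulin signalling genes, 2 rose and 2 fell in ApoE versus Ctrl, where 44.1% of all genes were called either way, Pdk4 rose in CKD versus Ctrl (2.16, limma adjusted p = 0.046), and 1 was higher and 5 lower in ApoE than in CKD. Insr, the insulin receptor, stood at 9.84 and 10.6, 4.86 and 3.64, and 11.3 and 9.45 FPKM (ApoE minus CKD -1.12, limma adjusted p = 0.00448), and Irs2, an adaptor of that receptor, differed by -2.22 (limma adjusted p = 0.00554). Of 9 tested preadipocyte and progenitor genes, Pi16 fell in ApoE versus Ctrl by 1.78 (limma adjusted p = 0.00724), and Cebpd, an early factor of adipocyte differentiation, was lower in ApoE than in CKD by a difference of -1.28 (limma adjusted p = 0.0443).

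Levels of markers of other cell types also differed between the libraries. The summed level of 9 brown adipocyte markers was 111 and 278 FPKM in Ctrl, 818 and 867 in ApoE, and 1227 and 431 in CKD, the same order of libraries as for Adipoq within Ctrl and CKD; Ucp1, the uncoupling protein of brown fat, stood at 26.3 and 77.4, 236 and 147, and 539 and 178. Of the 9, 3 rose (Cox8b, Otop1 and Cox7a1) and Prdm16 fell in ApoE versus Ctrl, and Ppargc1a rose in CKD versus Ctrl. The 9 macrophage markers summed to 216 and 188 in Ctrl, 3397 and 4055 in ApoE, and 405 and 621 in CKD, with 8 of 9 higher in ApoE versus Ctrl and 7 of 9 higher in ApoE than in CKD, beside 19.8% and 18.5% of all genes, and 5 of 9 higher in CKD versus Ctrl, beside 2.23%. The 6 smooth muscle markers summed to 8265 and 7406, 638 and 557, and 3384 and 5892, with 6 of 6 lower in ApoE in both comparisons, beside 24.3% and 21.2% of all genes. No marker of these 3 lists was at 0 in any library. The 4 mesothelial markers, genes of the outer lining of organs, summed to 0.440 and 0.974 in Ctrl, 7.85 and 4.87 in ApoE, and 48.1 and 39.6 in CKD, with Wt1 at 0 in both Ctrl libraries; they were higher in CKD where the adipocyte genes were also higher, and their part was not tested. The 5 cardiomyocyte markers summed to 4.57 and 4.43 in Ctrl, 8.75 and 9.23 in ApoE, and 24.0 and 30.2 in CKD, with 3 of 4 tested (Myl7, Tnnt2 and Myh6) higher in CKD versus Ctrl, and none was at 0. The 5 lymphocyte markers summed to 2.66 and 16.5 in Ctrl, 4.22 and 8.40 in ApoE, and 0.872 and 0.551 in CKD, with 0 of 3 tested called by limma in any comparison (1 lower at an unadjusted p below 0.05, in CKD versus Ctrl), so that Ctrl 2, the library in which all 33 genes were above Ctrl 1, was also higher in these markers. The part of both lists in the results was not tested. The ApoE libraries, in which Rbp4, Plin4 and Klf15 were lowest, had the lowest smooth muscle and highest macrophage levels, and the part of either in the results was not tested. Between ApoE 1 and ApoE 2, which differed in Me1, Acly and Elovl6, the macrophage markers differed both ways, with Adgre1 at 69.2 and 44.5 and Gpnmb at 578 and 954, and their part in that difference was not tested.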

How the data were processed

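The authors deposited 1 file per library, with 27815 gene identifiers each. Of these, 5 list identifiers and then values in a single column, and 1 has them side by side. No header or label names the unit. The deposited values were taken as FPKM from the values themselves: multiplied by the exon length of GENCODE M21 (available for 27730 identifiers), 89.5% to 89.9% of them were whole multiples of 1 read within 0.05, which gives 14.44 to 16.64 M reads per library. The tools TopHat2, HISAT2 2.1.0 and Bowtie2 2.2.3 and the build GRCm38 come from the submitters' processing notes. The role of each tool and how reads were counted: not given in the sources used here. Symbols were matched for 27695 identifiers.

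Genes below 1 FPKM in more than 4 libraries were dropped, which left 14074, and FPKM was put on the scale log2(FPKM + 1). A model of the 3 group means over all 6 libraries was fitted with limma 3.58.1 (R 4.3.3, variance trend, robust), and the call was an adjusted p (Benjamini-Hochberg, over all genes tested) below 0.05. The fit was also run on simulated data with planted changes. Those data held no shared shift of fat cell genes within a group, so that run does not cover the spread seen here. Alternatives changed the pseudocount, filter, scaling, libraries in the fit and variance model, added the replicate number as a block or the level of 20 other adipocyte genes as a covariate, and left out each library. Where 1 library was left out, its group kept a single library, which was assumed to vary like the other groups.

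The members, the lists and the tests were chosen with earlier results of these data known. All 33 members are named; from each pathway list up to 4 called genes with the smallest adjusted p in a comparison are named, except that some are not reported here. Of the marker lists drawn up for other cell types, the brown adipocyte, macrophage, smooth muscle, mesothelial, cardiomyocyte and lymphocyte lists are reported, the last 3 of them chosen after their values were seen. The ratio to Adipoq and the repeats of the covariate fit were also chosen after seeing the data. Promoters came from RefSeq on GRCm38.p6; Dgat1, Dgat2, Fabp4, Gpd1, Scd1 and Slc2a4 had none in that table.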

Additional observations from a re-analysis of the deposited data

How the results depend on the processing

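In ApoE versus CKD, Cebpa and Mlxipl changed sign without CKD 2, to -0.09 and -0.02. Their log2 differences with all libraries were 0.72 and 0.73 and had not passed (limma adjusted p = 0.308 and 0.259), and both were called with the covariate. No member called by the model of group means changed direction where 1 choice was changed. Where the covariate was added and a library was left out as well, 11 of the 22 called in ApoE versus Ctrl did so at least once. With no filter on low values, which tests more genes, 11 members were called in ApoE versus Ctrl, 0 in CKD versus Ctrl and 2 in ApoE versus CKD, beside 22, 3 and 9, and the count of all genes in CKD versus Ctrl went from 766 to 1. With only the 4 libraries compared, 1 gene and 0 members were called in CKD versus Ctrl. With adipocyte level as a covariate 2073 genes were called in ApoE versus Ctrl and 0 in CKD versus Ctrl, beside 6208 and 766, and 3, 0 and 19 members in the 3 comparisons.

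Leaving out each library gave 3021 to 7019 genes and 5 to 29 members in ApoE versus Ctrl, 0 to 2416 genes and 0 to 21 members in CKD versus Ctrl, and 2914 to 5045 genes and 2 to 13 members in ApoE versus CKD. In the fit with the covariate it gave 0 to 7 members in ApoE versus Ctrl and 3 to 21 in ApoE versus CKD. The cause of these shifts was not tested. Other pseudocounts, scalings and variance models kept each count within 1.5 times its value. Among members that had not passed, the covariate changed the sign of 10 of 11 in ApoE versus Ctrl, 17 of 30 in CKD versus Ctrl and 2 of 14 in ApoE versus CKD.

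Same-numbered libraries had deviations from their group means that correlated at 0.05 (Ctrl and ApoE), -0.23 (Ctrl and CKD) and -0.10 (ApoE and CKD). With 2 libraries a group, these values cannot show whether libraries were paired or handled in batches. With the replicate block, 5159, 46 and 4556 genes and 19, 0 and 6 members were called in ApoE versus Ctrl, CKD versus Ctrl and ApoE versus CKD. With a crossed replicate block, chosen after seeing the data, CKD versus Ctrl had 1230 genes and 13 members called. Depth limits Lep in Ctrl, where 11 and 28 reads were counted, and such figures carry counting error only.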
